A study of Mus musculus with 15 samples.

Results

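The proteins of the cytosolic ribosome are encoded by a family of genes named Rpl for the large subunit and Rps for the small subunit. The members described here are the 88 gene symbols, of 21788 listed across 15 RNA-seq libraries, that start with Rpl or Rps and a number, together with Rplp0, Rplp1, Rplp2 and Rpsa. A further 17 symbols with such names, the Rps6k kinases, Rps19bp1 and pseudogenes, were dropped. Of the 88 members, 77 encode the standard proteins and are called core genes below: 31 of the small subunit, 43 of the large subunit and the 3 stalk genes. The other 11 are paralogs or retrocopies, which are second genes for the same kind of protein: Rpl39l, Rps27l, Rpl22l1, Rpl3l, Rpl10l, Rpl7l1, Rps4l, Rpl36al, Rps27rt, Rpl32l and Rpl37rt.

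All libraries came from tumour-infiltrating T cells of female C57BL/6 mice aged 9 to 11 weeks, 21 days after E.G7 cells were placed under the skin. E.G7 is EL4, a lymphoma line of mouse T cells, made to express ovalbumin (OVA). One pair of libraries held OVA-specific CD8+ T cells in bulk from mice labelled B7S1 KO and from wild-type (WT) mice, with 6 mice per group. B7S1, the product of Vtcn1, is one of the B7 ligands, and through B7S1 other cells dampen T cells. B7S1R stands for its receptor. A second set of 9 libraries held PD-1+ CD8+ T cells sorted into 3 populations: B7S1R_SP had B7S1R without Tim-3, TIM-3_SP had Tim-3 without B7S1R, and DN had neither. Each population gave 1 library labelled KO and 2 WT libraries, numbered 1 and 2. The last 4 libraries, from wild-type mice, are titled combo, anti_B7S1, anti_PD1 and Control, and the labels used here give them no antibody dose or schedule and no sorted population. The labels do not say whether replicates came from separate mice, so p-values measure only the spread between these libraries, which may be technical.

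The small subunit of the ribosome reads the messenger RNA and the large subunit joins amino acids, while the stalk proteins P0, P1 and P2 recruit the elongation factors. Resting T cells make few ribosomes, and activated T cells enlarge ribosome production as they grow and divide. Many messenger RNAs of the family begin with an unbroken run of C and T bases, the TOP motif, through which the kinase mTOR controls their translation in mammals. In bulk samples, fewer cells of a type and less RNA per cell cannot be told apart.

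Sequencing depth is unknown for the FPKM values. Files that share a gene list were treated as 1 table, which gave 4 tables: the bulk pair, the WT libraries numbered 1, the WT libraries numbered 2 with those labelled KO, and the antibody libraries. Genes at 1 or more numbered 7908 in bulk KO and 8042 in bulk WT, and 8860 to 10362 across the sorted populations. Libraries with antibody had 6913 to 8640 such genes and Control had 5752. All 7 listed markers of CD8 T cells were above the lowest value in every library, with sums from 2010 FPKM (B7S1R_SP KO) to 10940 RPKM (bulk KO). B7S1R_SP had the lowest sum in each set of sorted libraries: 2010 FPKM in KO, 2257 FPKM in WT 2 and 4358 FPKM in WT 1. In the same order, TIM-3_SP had 6393, 8612 and 6652 FPKM, and DN had 3305, 5860 and 7346 FPKM. The part of these sums in the population differences was not tested. Vtcn1 went against the genotype labels where it was listed: it stood at 9.46 RPKM in bulk KO and 0.0687 RPKM in bulk WT, at 0.16 to 2.5 FPKM in the sorted libraries labelled KO, and at 0 in the 3 WT libraries of that table. Every genotype direction below therefore rests on the labels. The 3 erythroid markers, genes of red blood cells, summed to 4.17 to 105.66 FPKM in the libraries labelled KO and to 8626 to 69637 FPKM in the WT libraries numbered 2. Markers of macrophages and dendritic cells summed to 8463 FPKM in B7S1R_SP KO and 2417 FPKM in B7S1R_SP WT 1, against 157.03 to 775.5 FPKM in the other sorted libraries.

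Sequence shows how close some members are to their second genes, which matters for values counted per gene. The first 60 bases of the coding sequence, from GENCODE transcripts of GRCm38, are given for Rps27, for its retrocopy Rps27rt and for its paralog Rps27l, with capitals where a base differs from Rps27.
Rps27: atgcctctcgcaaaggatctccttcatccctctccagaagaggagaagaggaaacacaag
Rps27rt: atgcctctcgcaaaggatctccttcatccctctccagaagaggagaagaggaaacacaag
Rps27l: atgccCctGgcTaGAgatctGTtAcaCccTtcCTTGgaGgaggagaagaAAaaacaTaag
Rps27 lies at chr3:90212667-90213648, Rps27rt at chr9:114982366-114982739 and Rps27l at chr9:66944624-66949522 (RefSeq, GRCm38.p6). Rps27rt had no difference from Rps27 over the 255 coding bases, so a read from one cannot be told from the other within them, and their values are uncertain. Rps27l had 61 differences, an identity of 76.1%, and 18 of them lay in the stretch shown.

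The start sites of 4 members whose values recur below are given from 60 bases before to 20 bases after the annotated start (RefSeq promoters, GRCm38.p6), with the longest run of C and T near the start in capitals.
Rps27, chr3:90213629-90213708, minus strand: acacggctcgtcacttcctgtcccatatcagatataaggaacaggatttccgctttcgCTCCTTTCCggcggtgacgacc
Rpl22l1, chr3:28805448-28805527, plus strand: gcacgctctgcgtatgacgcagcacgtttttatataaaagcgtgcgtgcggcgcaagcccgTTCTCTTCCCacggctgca
Rps15a, chr7:118116128-118116207, minus strand: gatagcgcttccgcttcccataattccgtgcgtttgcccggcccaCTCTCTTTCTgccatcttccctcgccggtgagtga
Rps27l, chr9:66946026-66946105, plus strand: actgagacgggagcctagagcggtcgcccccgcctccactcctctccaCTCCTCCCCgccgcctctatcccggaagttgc
The runs are 9, 10, 10 and 9 bases long in this order. They begin at positions -2, 2, -15 and -12 from the annotated start, and those of Rps15a and Rps27l end before it. The capitals therefore do not mark TOP motifs as such. A run of 8 or more C or T bases reaching within 10 bases of the start stood in 30 of the 67 members with a RefSeq promoter (44.8%), and in 15.8% of 27025 genes. The letters CCGGAAG, on either strand, stood in 26 of the 67 members' windows of 250 bases before to 50 bases after the start (38.8%, against 9.93% of all genes), and AAGATGGC in 6 (8.96%, against 3.19%). TATAAA stood in 8 (11.9%, against 15.7%). A match describes these letters and is no evidence of binding.

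The members held between 12.2% and 36.5% of all listed values in a library. In the table of the WT libraries numbered 2 and those labelled KO, the share was 35.4% in B7S1R_SP KO, 29.3% in TIM-3_SP KO and 36.5% in DN KO, against 34.8% in B7S1R_SP WT 2, 20.45% in TIM-3_SP WT 2 and 24.2% in DN WT 2. The libraries labelled KO were thus the higher of each pair, by little in B7S1R_SP and by more in TIM-3_SP and DN. Haemoglobin genes took 1.14%, 9.72% and 7.85% of these 3 WT libraries in the same order of populations, and without them the WT shares were 35.2%, 22.7% and 26.2%. In the WT libraries numbered 1 the share was 22.2% in B7S1R_SP, 21.4% in TIM-3_SP and 26.6% in DN. The bulk pair had 25.05% in KO and 28.5% in WT, the opposite direction to the sorted libraries. Among the antibody libraries the share was 12.2% in combo, 21.9% in anti_B7S1, 17.3% in anti_PD1 and 15.7% in Control. Between 37 members (combo) and 63 members (DN KO) were among the 100 genes with the highest values in a library.

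**Figure D1:**
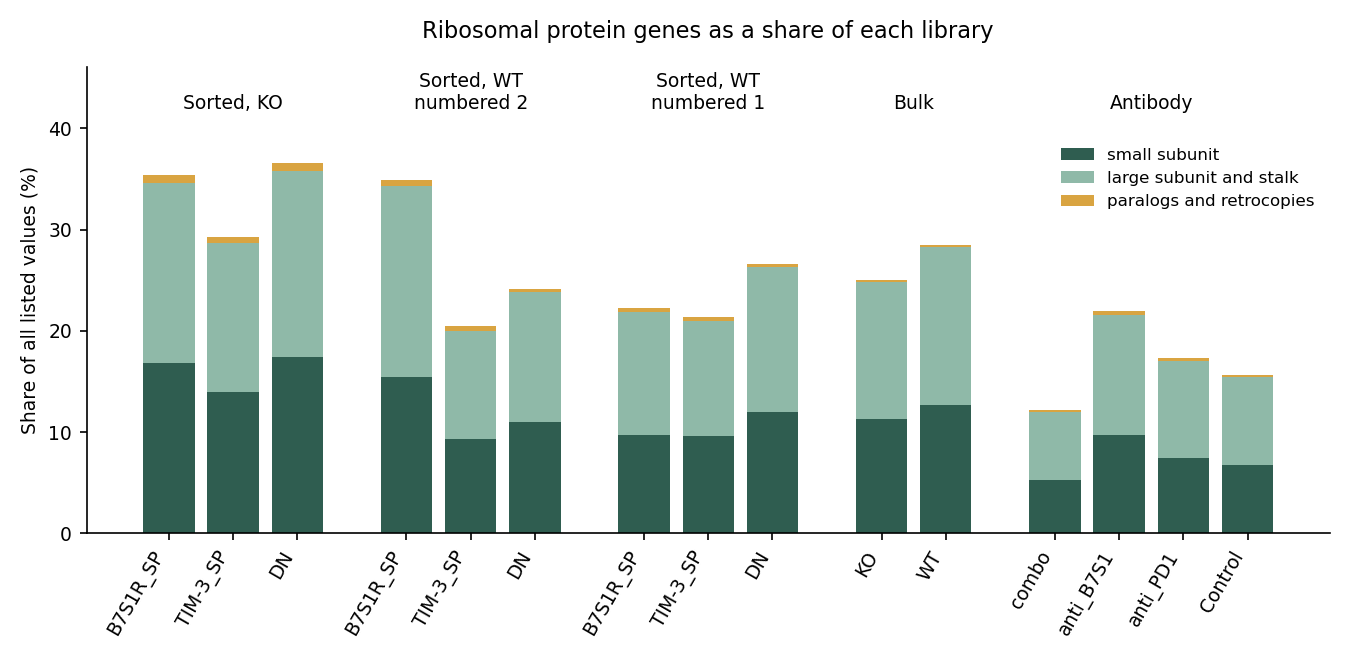
Share of all listed values (%, y axis) held by ribosomal protein genes in each of the 15 libraries, with small-subunit genes, large-subunit and stalk genes, and paralogs with retrocopies stacked. DN KO is the highest at 36.5% and combo the lowest at 12.2%, and values are on one scale only within a set of libraries named above the bars.

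Core genes spanned a wide range of levels per length. In DN KO they lay between 324 FPKM (Rpl22) and 28190.5 FPKM (Rps27), and in combo between 72.9 FPKM and 2945 FPKM for the same genes. Rps27, a small-subunit protein, was the highest core gene in 12 of the 15 libraries, all of them FPKM libraries. Rpl35, which sits beside the exit of the large subunit's tunnel, was the highest in B7S1R_SP WT 2 (18233 FPKM). Rpl41, the shortest of the proteins, was the highest in the bulk pair (15660.5 RPKM in KO and 19781 RPKM in WT). After Rps27, the highest by table mean were Rpl13, Rpl37a, Rpl41 and Rpl32 in the WT libraries numbered 1 (5068 to 5869 FPKM), and Rpl32, Rpl35, Rps29 and Rpl41 in the WT libraries numbered 2 and those labelled KO (9292 to 12416 FPKM). In the antibody table they were Rpl13, Rpl32, Rpl41 and Rps29 (2686 to 3385 FPKM), and in the bulk pair Rpl41 was followed by Rpl35, Rps14, Rps18 and Rps19 (9157 to 12722 RPKM). At the low end, Rpl22 was the lowest core gene in every library but B7S1R_SP KO, B7S1R_SP WT 2 and Control, where Rps15a was lower. Rpl22 is a large-subunit protein that mouse alpha-beta T cells need for their development. The median small-subunit gene stood at 0.99 (combo) to 1.45 (DN WT 1) times the median large-subunit gene.

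The order of core genes differed between the bulk pair and the other libraries more than within either. The Spearman correlation across the 77 core genes was 0.994 within the bulk pair, 0.669 to 0.992 among the 13 FPKM libraries (median 0.893) and 0.453 to 0.591 between bulk and FPKM libraries, as a description of genes that share their libraries. With each value divided by the median core gene of its library, 18 core genes were lower and 25 higher in both bulk libraries than in all 13 others. Rps27 stood at 44.3 RPKM in bulk KO and 20.01 RPKM in bulk WT, and its relative level in bulk WT was 0.00142 times its median over the FPKM libraries. A ratio under 0.1 was also seen for Rpl35a, Rpl22, Rps27a, Rpl19, Rpl34, Rpl30 and Rpl31 (0.00384 to 0.0701), with Rpl38 just outside at 0.264. Rps27a encodes ubiquitin fused to a small-subunit protein. At the other end, Rps20 (6.17), Rps13 (3.74), Rpl41 (3.02), Rpl35, Rpl23a, Rps18 and Rps14 were among those over 2 times their FPKM median. The bulk and FPKM files differ in unit, gene list and cells sorted, which cannot be told apart here. Shared sequence was high throughout: 67 core genes had 50% or more of their coding stretches of 50 bases in the transcript of another gene. The median was 91.6% in the 8 genes under 0.1 and 92.4% in the other 69. A measure so high in most core genes could hardly separate them, and the part of shared sequence was not tested.

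**Figure D2:**
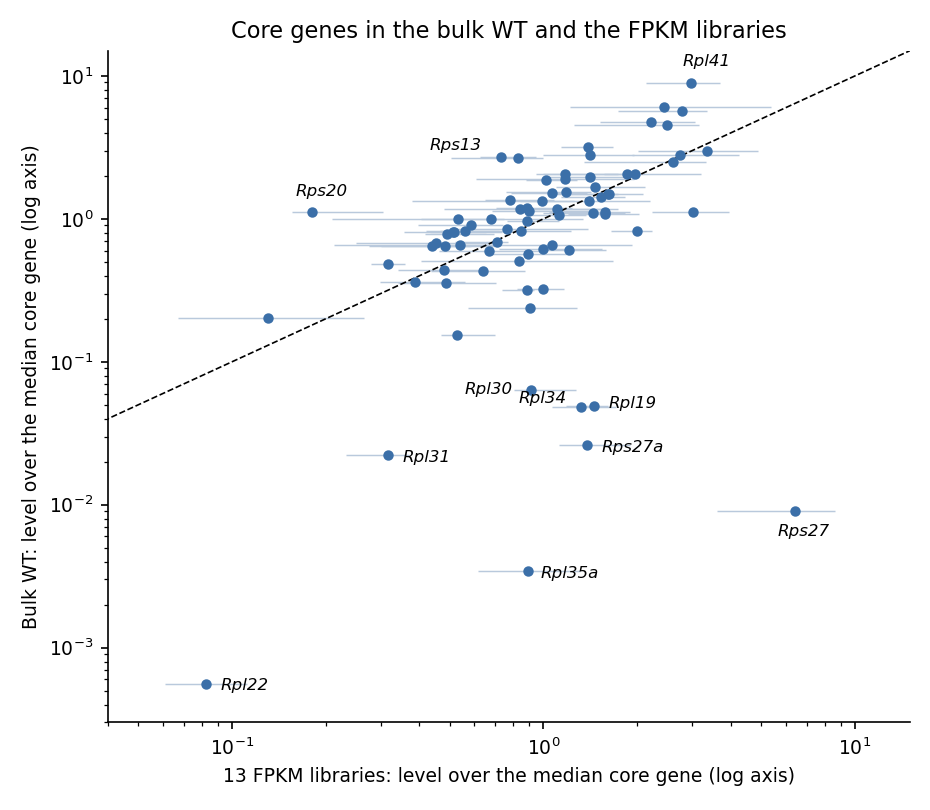
Level of each core gene divided by the median core gene of its library, in the bulk WT library (y axis, log) and in the 13 FPKM libraries (x axis, log; point at the median, bar from lowest to highest). The dashed line marks equal values; Rps27, Rpl35a, Rpl22, Rps27a, Rpl19, Rpl34, Rpl30 and Rpl31 lie far below it, and Rps20, Rps13 and Rpl41 above it.

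Rpl22l1 was the paralog that stood above its partner in every library. Rpl22l1 had 1654 FPKM in B7S1R_SP KO, 2258 FPKM in TIM-3_SP KO and 2239 FPKM in DN KO, against 757 FPKM in B7S1R_SP WT 2, 1724 FPKM in TIM-3_SP WT 2 and 868 FPKM in DN WT 2. Its partner Rpl22 stood at 339 FPKM, 256 FPKM and 324 FPKM in the same libraries labelled KO and at 279 FPKM, 158 FPKM and 135 FPKM in the WT libraries. Rpl22l1 was the higher of the pair in all 15 libraries, including bulk (386 RPKM against 0.821 RPKM for Rpl22 in KO, and 407 RPKM against 1.23 RPKM in WT). Rps27l, which p53 induces in human and mouse cells, was lower than Rps27 in all FPKM libraries. Its own levels were 2283 FPKM in B7S1R_SP KO, 1887 FPKM in TIM-3_SP KO and 2053 FPKM in DN KO, against 1692 FPKM, 1031 FPKM and 720 FPKM in the WT 2 libraries of the same populations. In bulk the order was turned round, with Rps27l at 619 RPKM in KO and 639 RPKM in WT. Rpl36al, a retrocopy-derived gene, had 2555 FPKM in B7S1R_SP KO, 1454 FPKM in TIM-3_SP KO and 2413 FPKM in DN KO. It had 1955 FPKM, 1213 FPKM and 986 FPKM in B7S1R_SP, TIM-3_SP and DN WT 2, and was below its partner Rpl36a in all of these libraries, while in combo it was above it (497.0 FPKM against 343 FPKM). Rpl7l1 stayed between 38.9 RPKM and 184.61 FPKM in the 15 libraries, far under Rpl7.

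Most of the other paralogs and retrocopies, several of them known from testis or muscle, were at or near the lowest value. Rpl39l, the testis-enriched relative of Rpl39, was listed at 0 FPKM in B7S1R_SP KO and at 17.72 FPKM in TIM-3_SP KO and 0.34 FPKM in DN KO, while all 3 WT libraries numbered 2 listed it at 0. In the WT libraries numbered 1 the B7S1R_SP, TIM-3_SP and DN libraries had 9.68 FPKM, 12.13 FPKM and 5.91 FPKM of it. It was listed at 0 in combo, anti_B7S1 and anti_PD1 and at 19.36 FPKM in Control, and at the lowest value, 0.001 RPKM, in bulk KO against 12.99 RPKM in bulk WT. Rpl39l was thus above 0 in the WT libraries numbered 1 and at the lowest value in at least 1 library of every other table, and where the sorted libraries of a set had it, TIM-3_SP was the highest. Rpl10l, which stands in for Rpl10 in mouse sperm development, was above the lowest value in bulk KO (0.0746 RPKM) and B7S1R_SP WT 2 (2.67 FPKM) and at it in the other 6 libraries that list it. Rpl3l, the muscle form of Rpl3, reached 2.78 FPKM in DN WT 1. Rps4l reached 5.67 FPKM in B7S1R_SP KO, and Rpl32l 7.25 FPKM in TIM-3_SP WT 1. Unlike these, the retrocopy Rpl37rt was listed at 101 to 1032 FPKM.

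TIM-3_SP and DN differ in the sort by Tim-3, a receptor of exhausted T cells. No member passed limma's test in the 6 WT libraries, where 84 of the 85 members listed in both tables had a mean of at least 1 FPKM. The count of 0 had beside it 0% of 10411 genes called in either direction, and no member had an unadjusted p under 0.05 (all genes: 0.749% higher and 2.69% lower). Pairing the WT libraries by number, as a replicate block, called 0 members, beside 0.0192% of all genes higher and 0% lower. A block for the set over all 9 sorted libraries also called 0, beside 0.059% higher and 0% lower. The members' median log2 difference was -0.29, with 8 of the 84 above 0, beside a median of -0.17 and 41.1% above 0 for all genes tested. It was -0.044 without TIM-3_SP WT 1, and -0.063 with each library centred on its median gene. By subunit, 1 of 31 small-subunit, 2 of 43 large-subunit and 0 of 3 stalk genes were above 0.

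The members lower in TIM-3_SP were led by Rplp0, the anchor of the ribosome stalk. It stood at 2047 and 2113 FPKM in TIM-3_SP WT 1 and 2, against 3297 and 3933 FPKM in DN WT 1 and 2, a log2 difference of -0.79 ± 0.75 (SE; limma adjusted p = 1). TIM-3_SP was thus below DN in both WT libraries, and it was also below DN in the libraries labelled KO (2547 against 3432 FPKM). Rpl18, Rpsa, Rps19 and Rps2 followed, at -0.62, -0.58, -0.58 and -0.57. Rpsa is a small-subunit protein also known as the laminin receptor. Higher values in TIM-3_SP were seen for Rpl32l (1.02), Rpl39l (0.46), Rpl22l1 (0.36), Rps27l (0.23), Rpl27 (0.23) and Rps15a (0.22). Of these, Rpl39l was at -1.39 without TIM-3_SP WT 1 and -0.93 without DN WT 2, and Rpl22l1 was at -0.18 without TIM-3_SP WT 2. Over the 3 sets of libraries, 42 of 84 members were lower in TIM-3_SP in every set, beside 19.7% of all genes. Rps15a alone was higher in every set, beside 8.61% of all genes. It had 420 FPKM in TIM-3_SP KO and 353 FPKM in DN KO, 241 FPKM in TIM-3_SP WT 2 and 193 FPKM in DN WT 2, and 400.0 FPKM in TIM-3_SP WT 1 and 369 FPKM in DN WT 1.

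The size of the difference varied from set to set. The median log2 difference of TIM-3_SP over DN was -0.33 among the libraries labelled KO (78 of 84 members lower), -0.073 among the WT libraries numbered 2 (46 of 84 lower) and -0.45 among the WT libraries numbered 1 (78 of 85 lower). All genes had medians of -0.10, -0.43 and 0.12 in these sets, with 44.5%, 33.9% and 53.1% higher, so in the WT libraries numbered 2 the members lay above genes in general. The WT libraries numbered 2 were those with the haemoglobin transcripts, and the part of these in the result was not tested beyond leaving them out, which gave a median of -0.27 in the 6 WT libraries.

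B7S1R_SP against DN asks what accompanies the B7S1 receptor without Tim-3. No member of 84 passed limma's test, none had an unadjusted p under 0.05, and 0% of all genes were called (1.27% higher and 1.42% lower unadjusted). The replicate block, and the block for the set over 9 libraries, called 0 members and 0% of all genes. The median member difference was 0.14 (65 of 84 above 0), beside -0.027 and 48.7% for all genes. It rested on B7S1R_SP WT 2: without that library the median was -0.42, and without B7S1R_SP WT 1 it was 0.73. Haemoglobin genes took 1.14% of B7S1R_SP WT 2 and 7.85% of DN WT 2, and without them the median was 0.090. With the block for the set over 9 libraries it was 0.065. Set by set, the medians were -0.10 among the libraries labelled KO (63 of 84 lower), 0.74 among the WT libraries numbered 2 (81 of 84 higher) and -0.44 among the WT libraries numbered 1 (77 of 85 lower), so the 2 WT sets went opposite ways. All genes were at 0.078, -0.27 and 0.27 in the same order of sets (56.6%, 41.8% and 58.4% higher), and so also went opposite ways between the WT sets, each time against the members.

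Few members kept a direction through that split. Rpl39, which lines the exit tunnel, Rps12, Rpsa and Rpl7l1 were higher in B7S1R_SP in all 3 sets, 4 of 84 members beside 15.8% of all genes. Rpl39 had 4528 FPKM in B7S1R_SP KO and 4415 FPKM in DN KO, 3381 FPKM in B7S1R_SP WT 2 and 1761 FPKM in DN WT 2, and 1680 FPKM in B7S1R_SP WT 1 and 1386 FPKM in DN WT 1. Rpl22l1 was lower in all 3 sets, 1 of 84 beside 14% of all genes, with 1654 against 2239 FPKM, 757 against 868 FPKM and 790 against 995 FPKM in the same order of sets. Both shares lay under those of all genes. In the 6 WT libraries the highest differences included those of Rpl37rt (0.69 ± 0.81, SE), Rps12 (0.61), Rpl39 (0.61) and Rps27l (0.59). The lowest were those of Rps6 (-0.34), the substrate of the S6 kinases, Rps9 (-0.27), Rpl22l1 (-0.26), Rps27 (-0.24) and Rps3 (-0.23), all with a limma adjusted p of 1. Without B7S1R_SP WT 2, Rps12 was at -0.044, and without B7S1R_SP WT 1, Rps9 was at 0.25 and Rps6 at 0.11.

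Between B7S1R_SP and TIM-3_SP, no member of 84 passed limma's test and none had an unadjusted p under 0.05, beside 0% of all genes called (3.14% higher and 1.59% lower unadjusted). The replicate block called 0 members, beside 0.00961% higher and 0.0576% lower, and the block for the set over 9 libraries 0 members, beside 0.246% higher and 0.167% lower. The median member difference was 0.41, with 77 of 84 above 0, beside 0.16 and 56.9% for all genes. It was -0.17 without B7S1R_SP WT 2 and 1.02 without B7S1R_SP WT 1. The medians by set were 0.28 among the libraries labelled KO (68 of 85 higher), 0.84 among the WT libraries numbered 2 (82 of 85 higher) and 0.036 among the WT libraries numbered 1 (47 of 84 higher). All genes were at 0.23, 0.18 and 0.085 in this order (60.3%, 56.2% and 52.8% higher), so the count in the WT libraries numbered 1 was near that of genes in general. In all 3 sets, 43 of 84 members were higher in B7S1R_SP, beside 24.7% of all genes, and 2 were lower (Rpl22l1 and Rps15a), beside 13.9%.

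Rpl35 had one of the highest differences between these populations. It stood at 3456 and 18233 FPKM in B7S1R_SP WT 1 and 2, against 2584 and 7162 FPKM in TIM-3_SP WT 1 and 2, a difference of 0.88 ± 1.02 (SE; limma adjusted p = 0.999). The B7S1R_SP libraries differed from each other by more than the TIM-3_SP libraries did, and the lower of them fell between the 2 TIM-3_SP values. Rps12 (0.87), Rpsa (0.84) and Rps15 (0.81) followed. Rpsa had 1129 FPKM in B7S1R_SP KO and 771 FPKM in TIM-3_SP KO, 1080 against 475 FPKM in the WT libraries numbered 2, and 1089 against 769 FPKM in those numbered 1. Its 3 B7S1R_SP values lay within 1080 to 1129 FPKM and above all 3 TIM-3_SP values. Rpl22l1 was the lowest at -0.62 ± 0.78, then Rpl32l (-0.45), Rps15a (-0.25), Rpl39l (-0.15) and Rps27 (-0.080). Rpl35 was at -0.32 without B7S1R_SP WT 2, and Rpl32l was at 0.49 and Rps15a at 0.11 without TIM-3_SP WT 1. Summed markers of macrophages and dendritic cells were higher in B7S1R_SP in every set: 8463 FPKM in B7S1R_SP KO and 289.9 FPKM in TIM-3_SP KO, 775.5 FPKM in B7S1R_SP WT 2 and 194 FPKM in TIM-3_SP WT 2, and 2417 FPKM in B7S1R_SP WT 1 and 157 FPKM in TIM-3_SP WT 1. Of 16 listed markers, 0 were at 0 in B7S1R_SP KO and WT 2, against 5 in TIM-3_SP KO and 4 in TIM-3_SP WT 2. Their part in these differences, and in those between B7S1R_SP and DN, was not tested.

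**Figure D3:**
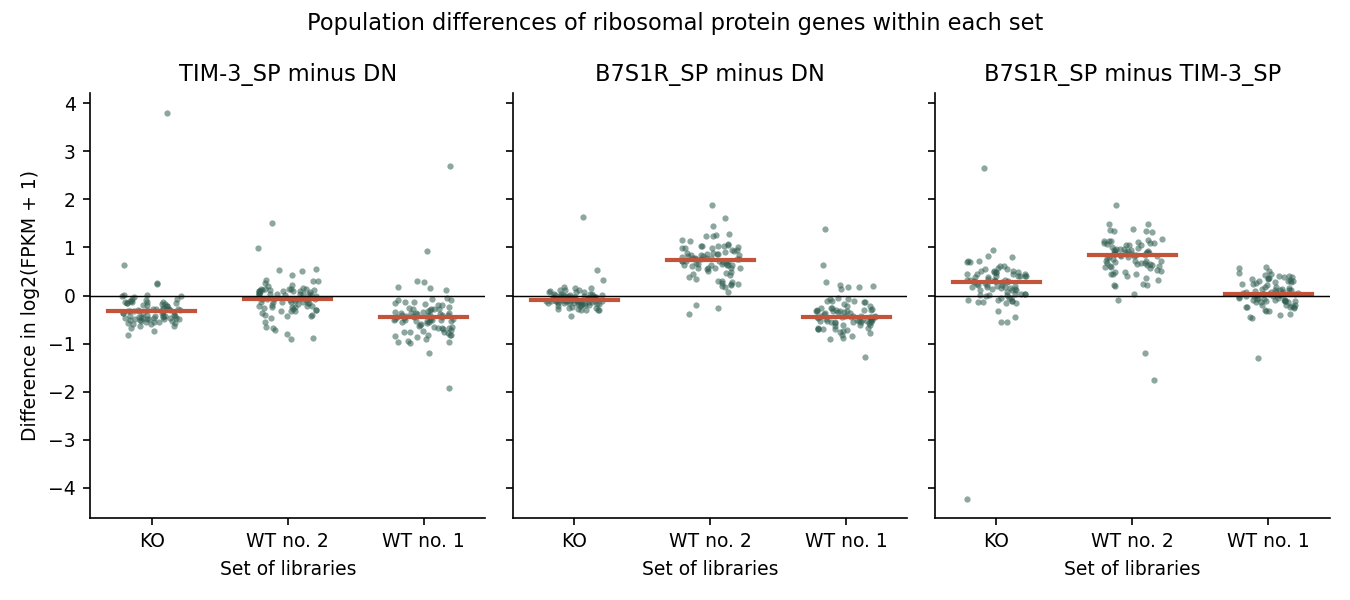
Difference in log2(FPKM + 1) of each measured ribosomal protein gene (points) between 2 populations, within the libraries labelled KO, the WT libraries numbered 2 and those numbered 1; red lines are medians. Most genes lie below 0 for TIM-3_SP minus DN, while B7S1R_SP minus DN has a median of 0.74 in WT number 2 and of -0.44 in WT number 1.

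In the sorted populations, the libraries labelled KO had higher values than the WT libraries for most members, and no member passed the test. The comparison used the 6 libraries of 1 table, with the population as a covariate, and 85 of the 87 listed members had a mean of at least 1 FPKM. No member was called in either direction by limma, beside 0% of 10097 genes higher and 0.0396% lower. Rpl22l1 and Rps21 had an unadjusted p under 0.05, 2 of 85 members, beside 4.01% of all genes higher, and 0 members were lower, beside 8.42%. The smallest adjusted p of a member was 0.398. The median difference was 0.49, with 80 of 85 above 0, beside -0.16 and 40.5% for all genes. It was 0.57 in the small subunit (30 of 31 above 0), 0.46 in the large subunit (41 of 43), 0.27 in the stalk (2 of 3) and 0.72 in the paralogs and retrocopies (7 of 8). The median was 0.32 without the DN libraries, 0.75 without those of B7S1R_SP and 0.77 after centring on the median gene. With all 9 sorted libraries it was 0.81, beside -0.41 for all genes, with 0 members called. That fit takes in the WT libraries numbered 1, which belong to another table.

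The 5 members below 0 were Rpl3 (-0.37 ± 0.38, SE), Rpl32l (-0.34), Rpl4 (-0.25), Rplp0 (-0.16) and Rps3 (-0.12). Rpl32l was at 0.013 without the DN libraries and Rpl4 at 0.027 after centring. Rpl3 lies near the catalytic centre of the large subunit. It had 752 FPKM in B7S1R_SP KO, 743 FPKM in TIM-3_SP KO and 819 FPKM in DN KO, against 1030 FPKM, 723 FPKM and 1341 FPKM in the WT libraries of the same populations. The KO values thus lay within the WT range. At the other end, Rpl39l (1.55 ± 0.83) was listed at 0 in all 3 WT libraries, was highest in TIM-3_SP KO, and was at -0.10 with all 9 libraries. Rpl22l1 (0.96 ± 0.39, limma adjusted p = 0.398) was followed by Rps21 (0.94), Rps29 (0.94), Rps27l (0.94) and Rplp1 (0.89).

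Rps21, a small-subunit protein, showed the groups apart. It had 2173 FPKM in B7S1R_SP KO, 1648 FPKM in TIM-3_SP KO and 2285 FPKM in DN KO, against 1473 FPKM, 929.8 FPKM and 842 FPKM in the WT libraries, and the lowest KO value was above the highest WT value. Rplp1, a stalk protein that pairs with Rplp2, had 6932 FPKM, 6053 FPKM and 7766 FPKM in the libraries labelled KO (B7S1R_SP, TIM-3_SP and DN), against 4786 FPKM, 3313 FPKM and 3223 FPKM in WT. In all, 18 of 85 members had every KO library above every WT library, beside 5.11% of all genes: Rpl11, Rpl17, Rpl27, Rpl34, Rpl39, Rpl41, Rplp1, Rps13, Rps14, Rps15a, Rps18, Rps21, Rps24, Rps26, Rps27, Rps27l, Rps3a1 and Rps6. No member had every KO library below every WT library, beside 9.99% of all genes. Within each of the 3 populations, 46 members were higher in KO, beside 14.1%, and 0 were lower, beside 23.5%.

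Several of these genes have known roles outside protein synthesis. Rpl11, which with Rpl5 binds Mdm2 and so stabilises p53, had 3083 FPKM, 3202 FPKM and 3216 FPKM in the libraries labelled KO (B7S1R_SP, TIM-3_SP and DN) and 2558 FPKM, 2242 FPKM and 2093 FPKM in WT. Rpl5 overlapped between the groups (1137 FPKM, 835 FPKM and 1145 FPKM in KO, against 1142 FPKM, 596 FPKM and 639 FPKM in WT). Rps14 and Rps19 are lost or mutated in human anaemias. Rps14 had 10846 FPKM, 9819 FPKM and 11947 FPKM in KO, above the 9405 FPKM, 5917 FPKM and 5753 FPKM in WT. Rps19 overlapped, with 8583 FPKM in TIM-3_SP KO below the 10506 FPKM of B7S1R_SP WT 2. Rps6 had 2837 FPKM, 2786 FPKM and 3141 FPKM in KO against 2763 FPKM, 2032 FPKM and 2359 FPKM in WT, so its lowest KO value lay close above its highest WT value. Rpl13a, which represses translation of inflammatory transcripts in human monocytes, had 4507 FPKM, 3962 FPKM and 4402 FPKM in KO and 4833 FPKM, 2589 FPKM and 3252 FPKM in WT. Rpl38, needed for Hox translation in mouse embryos, had 4568 FPKM, 3235 FPKM and 4696 FPKM in KO and 3685 FPKM, 1868 FPKM and 1798 FPKM in WT.

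By population, the genotype difference had these sizes. The median log2 difference of the library labelled KO over WT 2 was 0.042 for B7S1R_SP (47 of 85 members higher), 0.60 for TIM-3_SP (84 of 85) and 0.88 for DN (78 of 83). All genes were at -0.059, -0.086 and -0.49 in these populations, with 47%, 45.2% and 34.2% higher. limma's test of a different genotype effect between populations, over all 9 libraries, called 0 of 84 members and 0 of 10178 genes, with an unadjusted p under 0.05 for 0 members and 45 genes. The WT libraries in this comparison were those with erythroid transcripts. Haemoglobin genes took 1.14% of B7S1R_SP WT 2, 9.72% of TIM-3_SP WT 2 and 7.85% of DN WT 2. Their part in the difference was not tested beyond leaving them out. Without haemoglobin genes the median difference was 0.40 and no gene of 10188 was called.

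The members' levels were also set against each other. With the median core gene of each library set to 0, which by its construction leaves some members relatively higher and others relatively lower, 12 of 85 members had every KO library above every WT library, beside 1.18% of all genes: Rpl22, Rpl30, Rpl35a, Rpl36a, Rpl37rt, Rpl38, Rpl39, Rplp1, Rps21, Rps27l, Rps28 and Rps29. Another 17 of 85 had every KO library below every WT library, beside 22.7% of all genes, and on the values as deposited 0 members did. The median core gene was itself higher in KO than in WT 2 within each population, which lowers other genes on this scale. Neither share of all genes is thus a background for the members. On this relative log2 scale Rps29 stood at 1.86 to 2.09 in KO and 1.46 to 1.71 in WT, and Rplp1 averaged 1.02 in KO and 0.67 in WT. Rpl3 averaged -2.13 in KO and -1.22 in WT, Rpl4 -1.09 in KO and -0.31 in WT, and Rplp0 -0.18 in KO and 0.51 in WT.

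The size of the genotype difference varied with the length of the coding sequence. Over the 77 core genes, whose coding length runs from 78 to 1260 bases with a median of 459, the KO minus WT difference had a Spearman correlation with coding length of -0.609 in B7S1R_SP, -0.562 in TIM-3_SP and -0.806 in DN. The 39 shorter genes had median differences of 0.14, 0.71 and 1.05 in these populations, and the 38 longer genes -0.090, 0.50 and 0.61. Rpl4 and Rpl3, the longest of them, were at -0.37 and -0.71 in DN and at -0.69 and -0.45 in B7S1R_SP, but at 0.31 and 0.039 in TIM-3_SP. Other genes at the level of the core genes showed the relation too, with correlations of -0.407 (100 genes), -0.526 (150 genes) and -0.523 (89 genes), while other genes at all levels had 0.0391, -0.0154 and -0.202. The relation was not seen in every comparison: it was -0.745 for TIM-3_SP minus DN and -0.488 for B7S1R_SP minus DN in the WT libraries numbered 2, but between -0.0716 and 0.144 for all 3 population differences in the libraries labelled KO and between -0.0373 and 0.00223 in the WT libraries numbered 1, and 0.132 for B7S1R_SP minus TIM-3_SP in the WT libraries numbered 2. In the bulk pair it was 0.196. These correlations are across genes of the same libraries and carry no p-value.

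**Figure D4:**
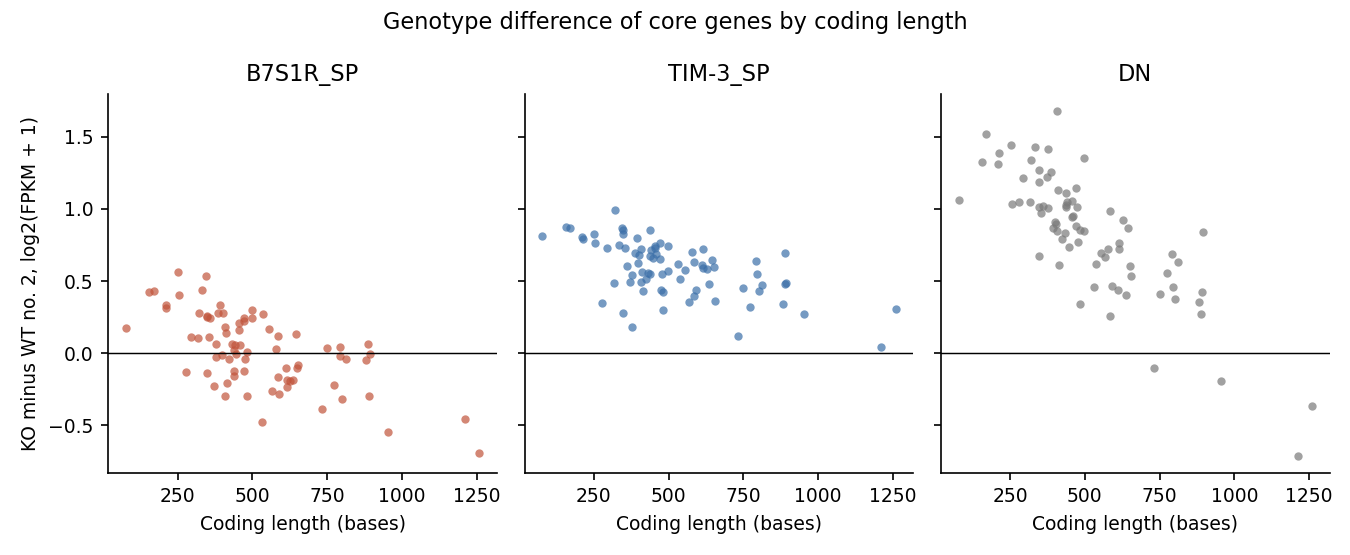
Difference between the library labelled KO and WT number 2 in log2(FPKM + 1) (y axis) against coding length in bases (x axis) for the 77 core genes (points), in B7S1R_SP, TIM-3_SP and DN. Differences lie around 0 in B7S1R_SP and above it for most genes in TIM-3_SP and DN, and shorter genes have the larger differences in all 3 panels.

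In bulk OVA-specific cells the direction was the other way. The median member was at -0.17 in KO over WT on the log2(RPKM + 1) scale, with 75 of 82 lower, beside -0.019 and 48.8% above 0 for all genes. The 82 are the members with 5 or more RPKM in the higher library, and Rpl10l, Rpl22 and Rps4l lay under that. With 1 library per group there is no replicate check. Past 2-fold, 1 member was higher (Rps27, 44.3 RPKM in KO and 20.01 RPKM in WT), beside 10.7% of all genes, and 1 was lower (Rpl39l, at the lowest value in KO), beside 12.1%. Rps27rt, whose coding sequence is that of Rps27, had 22.4 RPKM in KO and 20.002 RPKM in WT. Most members differed by little: Rplp0 had 2426 RPKM in KO and 2919 RPKM in WT, Rplp1 3349 RPKM and 3675 RPKM, Rplp2 992 RPKM and 1253 RPKM, and Rpsa 1360.5 RPKM and 1494 RPKM in the same order. The lowest log2 ratios after Rpl39l were those of Rpl30 (-0.57), Rpl34 (-0.47), Rps12 (-0.43) and Rpl9 (-0.41). Members higher in KO besides Rps27 were Rpl7l1 (0.53), Rps27rt (0.16), Rpl4 (0.16), Rpl13 (0.098), Rpl35a (0.076) and Rpl5 (0.035).

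The antibody libraries ask what blocking B7S1, PD-1 or both does, with 1 library per group and no replicate check. Control also had the fewest genes at 1 FPKM or more, and the part of this in the ratios was not tested. The B7S1 antibody alone went with higher values as the files give them: the median member was at 0.45 in anti_B7S1 over Control (69 of 83 above 0, beside 0.20 and 53.7% for all genes), but at -0.47 once each library was centred on its median gene, where all genes were at -0.71. Past 2-fold, 8 members were higher, beside 37.9% of all genes, and 1 was lower (Rpl39l), beside 29%. Both shares lay under those of all genes. After centring 0 members were higher and 11 lower, beside 5362 of 7083 genes past 2-fold in either direction. The 8 included Rpl22l1 (821 FPKM in anti_B7S1 and 344 FPKM in Control), Rps15a (188 FPKM and 82.9 FPKM), Rpl28, Rpl8, Rplp0 (3175 FPKM and 1523 FPKM), Rpl18 and Rps3a1. Rps2 had the lowest log2 ratio after Rpl39l (-0.64), followed by Rpl10 (-0.36), Rps26 (-0.29) and Rpl22 (-0.24).

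For the PD-1 antibody alone the median member was at 0.11 over Control (50 of 83 above 0, beside 0.49 and 58.7% for all genes) and at -0.97 after the same centring, where all genes were at -0.60. No member was 2-fold higher, beside 43.8% of all genes, and Rpl39l was lower, beside 23.8%. After centring 37 members were lower, beside 6211 of 7829 genes past 2-fold in either direction. The highest ratios were those of Rpl22l1 (680 FPKM in anti_PD1 and 344 FPKM in Control), Rps3a1 (2212 FPKM and 1126 FPKM), Rps2 (1771 FPKM and 905 FPKM), Rps15a (161 FPKM and 82.9 FPKM) and Rpl32 (4064 FPKM and 2195 FPKM). The lowest besides Rpl39l were those of Rpl22 (-0.71), Rpl12 (-0.55), Rpl29 (-0.41) and Rpl6 (-0.39).

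Both antibodies together went with lower values of most members than Control or either antibody alone, under every scaling tried. Over Control the median was -0.47 in combo (12 of 83 above 0, beside 0.27 and 54.6% for all genes), with 0 members past 2-fold higher, beside 40.1% of all genes, and 9 lower, beside 28%. After centring, 71 were lower and the median was -1.48, beside 5633 of 7226 genes past 2-fold in either direction and a median of -0.74. These 9 were Rpl7a (354 FPKM in combo and 949 FPKM in Control), Rps20 (128 FPKM and 333 FPKM), Rpl39 (309 FPKM and 801 FPKM), Rplp2 (539.6 FPKM and 1309 FPKM), Rps26, Rps21, Rpl6, Rpl36a and Rpl39l. Members higher in combo included Rps2 (0.59), Rpl7l1 (0.59), Rps15a (0.44) and Rpl8 (0.43). Over anti_B7S1 the median was -0.98 (79 of 82 below 0, beside 0.062 and 51.3% above 0 for all genes). There 38 members were past 2-fold lower, beside 30.8% of all genes, and Rps2 alone was higher (1367 FPKM in combo and 583 FPKM in anti_B7S1), beside 33.3%. Over anti_PD1 the median was -0.62 (78 of 82 below 0, beside -0.15 and 46% above 0), with 12 lower, beside 32.7%, and 0 higher, beside 23.6%.

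Rpl39 and Rps19 had the lowest ratios of combo over anti_B7S1. Rpl39 had 309 FPKM in combo, against 1039 FPKM in anti_B7S1, 1077 FPKM in anti_PD1 and 801 FPKM in Control. Rps19 had 1027 FPKM in combo, against 3264 FPKM in anti_B7S1, 2449 FPKM in anti_PD1 and 1835 FPKM in Control. For both genes the combo library was the lowest of the 4 and Control the next.

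Each antibody can be read in 2 pairs of libraries that have no library in common. For the B7S1 antibody, 66 of 82 members were above 0 in anti_B7S1 over Control and below 0 in combo over anti_PD1, 12 were below 0 in both, 3 above 0 in both (among them Rpl30 and Rpl7l1) and 1 the other way round (Rpl24). Of 5963 genes with 5 or more FPKM in both pairs, 29.6% were above and then below 0, 24.1% below in both, 24.1% above in both and 22.2% the other way round. For the PD-1 antibody, 48 of 82 were above 0 over Control and below 0 in combo over anti_B7S1, 31 below 0 in both, 2 above 0 in both (Rpl36al and Rps2) and 1 the other way round (Rpl7l1). Of 6255 genes, 27.2%, 20.8%, 31.4% and 20.6% fell in these classes in the same order. These few were named after their values were seen. These directions are those of the values as deposited. With libraries centred on their median gene, the first of each pair turns below 0 for the median member. The median of all genes tested turns too, from 0.20 to -0.71 in anti_B7S1 and from 0.49 to -0.60 in anti_PD1 over Control. The difference between pairs was not tested, since each rests on single libraries.

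**Figure D5:**
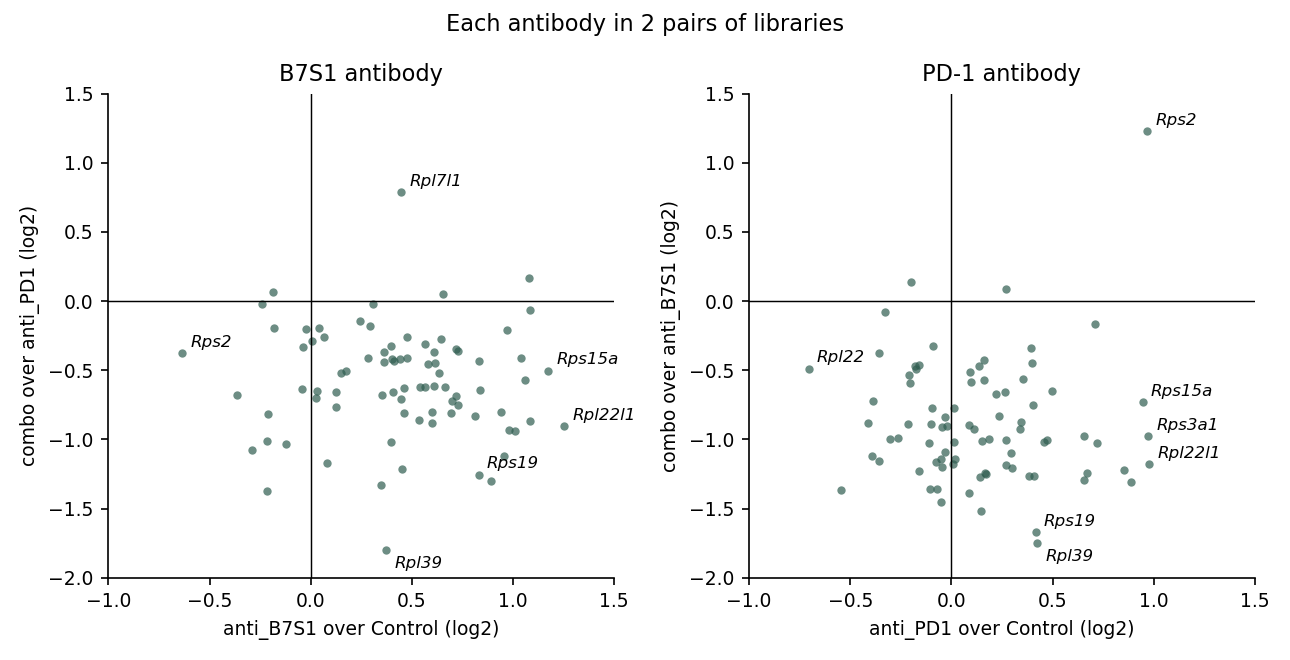
Log2 ratio of each ribosomal protein gene (points) with each antibody given alone over Control (x axis) and added to the other antibody (y axis), for 82 genes with 5 or more FPKM. Most points lie below 0 on the y axis in both panels. On the x axis most lie above 0 for the B7S1 antibody as deposited. The median there is 0.45, but -0.47 with libraries centred on their median gene, beside 0.20 and -0.71 for all genes.

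Ribosomal genes that the naming rule does not reach went the way of the members in the genotype comparison. Among them, Fau encodes a ribosomal protein fused to a ubiquitin-like protein, and Rack1 is a scaffold on the small subunit. Fau had 6574 FPKM in B7S1R_SP KO, 5164 FPKM in TIM-3_SP KO and 6469.7 FPKM in DN KO, against 6216 FPKM, 4189.96 FPKM and 4231 FPKM in the WT libraries numbered 2. The 3 genes of this list had a median log2 difference of 0.42, and none passed limma's test. Other genes of translation lay near or below genes in general, of which 40.5% were above 0 with a median of -0.16. Of 36 translation factors, 15 were above 0 (median -0.12), of 44 ribosome biogenesis genes 14 (median -0.15), and of 18 genes of translation control, such as mTOR components, 5 (median -0.36), with 0 of each list called by limma. Eef1a1, the most abundant elongation factor, had 3071 FPKM, 3375 FPKM and 3478 FPKM in the libraries labelled KO (B7S1R_SP, TIM-3_SP and DN) and 3469 FPKM, 3258 FPKM and 4659 FPKM in WT. In TIM-3_SP against DN, translation factors had a median of -0.41 (7 of 36 above 0) and biogenesis genes of -0.32 (13 of 45), beside -0.17 and 41.1% above 0 for all genes. In B7S1R_SP against TIM-3_SP they had 0.40 (30 of 36) and 0.71 (39 of 45), beside 0.16 and 56.9% for all genes, again with 0 called by limma. An unadjusted p under 0.05 was found for 1 translation factor and 2 biogenesis genes, beside 3.14% of all genes higher. Myc, which drives ribosome production, stood at 34.6 FPKM in B7S1R_SP KO, 26.7 FPKM in TIM-3_SP KO and 37.4 FPKM in DN KO, against 109 FPKM, 23.8 FPKM and 129 FPKM in WT 2. The WT libraries numbered 1, of another table, had 25.9 FPKM, 30.6 FPKM and 60.5 FPKM in this order. The 2 WT sets thus differed in Myc in B7S1R_SP and DN.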

How the data were processed

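cDNA was made with the SMARTer ultra low input kit and sequenced on Illumina HiSeq machines, per the labels' protocols. The submitters' processing notes list the tools RSEM, HISAT2 and Bowtie2, with no version, and the genome build mm10. The authors deposited RPKM for the bulk pair, per the file headers, none below 0.001, and FPKM for the other 13 libraries, per the file headers, rounded to 2 decimals. Filters and annotation are not given in the sources used here. No counts were used, so no count model was run.

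Groups were taken from the titles, because the strain field counts upward from C57BL/6 and the genotype field from B7S1 KO in some labels. Members were found by symbol in each table of files that list the same genes. For the sorted populations, limma 3.58.1 (R 4.3.3) was fitted to log2(FPKM + 1) of all genes whose mean reached 1 FPKM; p-values were adjusted over all of them by Benjamini-Hochberg, and the threshold was 0.05. Across 10411 genes, the deviations of same-numbered WT libraries from their group means correlated at 0.401, 0.193 and 0.269. Each exceeded 0.1, so the numbers were taken to pair the libraries, and the number also entered as a block. The SEs printed for population differences are from the fit without this block, so they also hold the difference between the WT sets. Unreplicated pairs were compared as log2 ratios of value + 1, called at 2-fold with 5 or more in the higher library, with no test. The fits were checked on simulated data with less noise than observed and changes far larger than those of most members. That check therefore does not show whether differences of the members' size would be called. Named genes were the paralogs with their partners, the stalk genes and Rpsa, members with known roles elsewhere, and the extremes of each table and comparison. Members, lists and tests were chosen with earlier results of these data known. Alternatives were other pseudocounts, filters, scalings and fits, and leaving out each WT library or, for KO against WT, each population. Some members are not reported by name here.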

Additional observations from a re-analysis of the deposited data

Results flagged for a closer look

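The B7S1 antibody was accompanied by opposite directions in its 2 pairs of libraries: the median member's log2 ratio was 0.45 in anti_B7S1 over Control and -0.62 in combo over anti_PD1. The PD-1 antibody likewise had 0.11 in anti_PD1 over Control and -0.98 in combo over anti_B7S1. Each value rests on single libraries, and the difference was not tested. The values over Control turn below 0 when libraries are centred on their median gene. So do the medians of all genes tested, to -0.71 for anti_B7S1 and -0.60 for anti_PD1.

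The genotype difference also went opposite ways, with a median member log2 difference of 0.49 in the sorted populations labelled KO over WT and of -0.17 in bulk cells labelled KO over WT. The bulk pair has 1 library per group, and this difference was not tested.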

How the results depend on the processing

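Of 76 counts of members under other settings, 72 stayed within 1.5 times the reported count or at 0. Of 76 medians, 4 changed direction. Others kept their direction but changed in size, as from 0.49 to 0.81 for KO against WT with 9 libraries. In the 4 limma comparisons 0 members were called under every setting run. Leaving out libraries gave medians of -0.43 to -0.04 for TIM-3_SP against DN, -0.42 to 0.73 for B7S1R_SP against DN, -0.17 to 1.02 for B7S1R_SP against TIM-3_SP and 0.32 to 0.75 for KO against WT. B7S1R_SP WT 2 turned both B7S1R_SP medians, and fewer libraries entered these fits. With the replicate number as a block, the medians were -0.29, 0.14 and 0.41, with 0 members called, and the block changed no call of a member. Over all genes it called 2, 0 and 7.

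Centring libraries on their median gene moved the median of all genes by over 0.1 in several comparisons: for TIM-3_SP against DN the members were then at -0.063 and all genes at 0.055, for KO against WT at 0.77 and 0.12, and in combo over Control at -1.48 and -0.74. It gave medians of -0.47 in anti_B7S1 and -0.97 in anti_PD1 over Control, where all genes were at -0.71 and -0.60. Past 2-fold were 37 members for anti_PD1 and 71 in combo over Control, all lower. In either direction 6211 of 7829 and 5633 of 7226 genes passed 2-fold there. Rescaling on other genes gave 14 members, beside 4739 of 7098 genes, and a median of 0.56 for anti_B7S1. With no minimum 2 members passed for anti_PD1, beside 6469 of 14710 genes. Leaving out haemoglobin genes, chosen after seeing the data, gave WT 2 shares of 35.2%, 22.7% and 26.2%. The cause was not tested.

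Among 283 values of single members, 12 changed direction. In the population comparisons, leaving out 1 library gave these ranges. In B7S1R_SP against DN, they were -0.79 to 0.25 for Rps9 and -0.78 to 0.11 for Rps6 (above 0 without B7S1R_SP WT 1), and -0.044 to 1.27 for Rps12 (below 0 without B7S1R_SP WT 2). Between B7S1R_SP and TIM-3_SP, they were -0.61 to 0.11 for Rps15a and -1.39 to 0.49 for Rpl32l (above 0 without TIM-3_SP WT 1), and -0.32 to 2.08 for Rpl35 (below 0 without B7S1R_SP WT 2). In TIM-3_SP against DN, they were -1.39 to 2.32 for Rpl39l (below 0 without TIM-3_SP WT 1, and -0.93 without DN WT 2) and -0.18 to 0.89 for Rpl22l1 (below 0 without TIM-3_SP WT 2). In KO against WT, a whole population was left out, its KO and WT libraries together. Rpl32l was then at -0.64 without TIM-3_SP and 0.013 without DN. Rpl39l was at -0.10 with 9 libraries and Rpl4 at 0.027 after centring. Where an arm was left with 1 sample, that sample was assumed to vary like the others. Depth is unknown, so no interval for counting error can be given.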
